A study of Schizosaccharomyces pombe with 12 samples.

Results

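Diploid and haploid fission yeast (Schizosaccharomyces pombe) were compared for 1 ploidy effect per gene that holds with and without methyl methanesulfonate (MMS), a DNA-alkylating agent that hinders replication forks. The 12 members are all 12 mRNA-seq libraries of the series, 6 diploid and 6 haploid, taken by the ploidy and treatment in their labels. The diploid strain was h-/h-, came from fusion of protoplasts and carried ade6-M210/ade6-M216, whereas the haploid strain was h- and carried ade6-M210 alone. Both strains had smt-0, which fixes the mating type, together with leu1-32, ura4-D18 and his3D-1, homozygous in the diploid. Each ploidy was represented by 1 strain grown as 3 cultures in rich YES medium, and each culture was divided into a portion with 0.0075% MMS for 4 h and a portion with no treatment (NT). The ade6 genotype differed with ploidy, so that its part in any difference cannot be told apart from that of ploidy. Equal numbers of cells were extracted and a common amount of ERCC RNA, a set of synthetic spike-in transcripts, was added.

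A diploid cell carries each chromosome as a pair and, in yeasts, grows to a larger size before it divides, so its surface, spindle and polarity structures must be scaled to a larger cell. Fission yeast grows at its tips, divides across a medial septum and depends on glucose fermentation when sugar is plentiful. Its chromosome ends carry gene families of surface glycoproteins, transporters and short membrane proteins that are often poorly expressed in rich medium.

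The libraries held about 16288000 to 26493900 counts each. Because the MMS and NT libraries of a culture share their cells up to the split, the culture was taken as the replicate. A gene was called when its adjusted p was under 0.05 both in an additive edgeR fit of ploidy and treatment over the 12 libraries and in limma on the mean log2 CPM (counts scaled to a common library total) of each culture, 3 diploid against 3 haploid, and when its absolute log2 fold change was above 0.58. The fold changes and their standard errors (SE) come from the additive fit. The genotype could be checked at ura4, which had 0 counts in all 12 libraries, and at his3, which had 1 to 10 counts in the diploid libraries and 2 to 8 in the haploid libraries. The 7 M-cell markers, among them the M-factor pheromone genes mfm1, mfm2 and mfm3, were detected and summed to 338 to 433 CPM in diploid libraries and 328 to 471 CPM in haploid libraries. The P-cell markers map2 and map3 were also detected, although the strains are h-, at 56.2 to 333 summed CPM in diploid libraries and 66.2 to 169 in haploid libraries, and their ranges overlapped.

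Yeast mRNA per spike-in was higher in every diploid library than in any haploid library. Relative to the haploid geometric mean, the diploid libraries had 2.08 to 2.58 units of yeast counts per spike-in and the haploid libraries 0.83 to 1.80. The haploid NT library of culture 1 was the one at 1.80 units, whereas the other 5 haploid libraries lay between 0.83 and 1.002 units. Averaged over MMS and NT within a culture, the diploid cultures were 2.28 times the haploid cultures (log2 1.19, p = 0.1 in a two-sided exact permutation test, the smallest that 3 against 3 allows), and 2.57 times without haploid culture 1. Scaling by spike-ins instead of by the bulk of the genes moved the median log2 fold change of all genes from 0.01 to 1.15, so every gene change given here is relative to that shift. With spike-in scaling 4583 of 4584 genes had a positive value, the exception being zym1 at -0.36, so the falls named here are falls relative to other genes. Cells were counted before equal numbers were harvested, and in bulk libraries an error in that count or in recovery cannot be told apart from a difference in mRNA per cell.

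**Figure D1:**
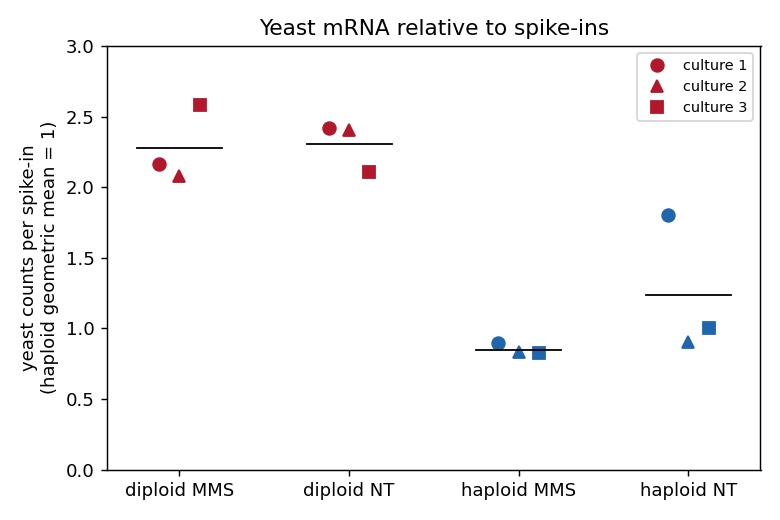
Yeast counts per spike-in in each library (y axis, haploid geometric mean set to 1) for diploid MMS, diploid NT, haploid MMS and haploid NT, with a symbol per culture and the group mean as a bar. The diploid libraries lie between 2.08 and 2.58 and the haploid libraries between 0.83 and 1.80, with haploid NT of culture 1 apart from the other haploid libraries.

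Against this shared shift, few genes moved with ploidy on their own. Of 4584 genes tested, 49 were called, or 1.07%, of which 24 were higher in diploids (0.524%) and 25 were lower (0.545%). Their adjusted p in limma on the culture means lay between 0.0223 and 0.0498, close to the threshold, and in edgeR on 12 libraries it was at most 0.00542. Without the fold threshold 71 genes passed both tests (1.55%), 30 of them higher (0.654%) and 41 lower (0.894%) in diploids, and these 71 are the genes said here to rise or fall. The additive fit alone would have called 117 genes (2.55%), and it treats the libraries of a culture as independent. All 49 called genes had culture means that did not overlap between the ploidies, as 24.5% of all genes tested did, and 29 of them had no overlap among the 12 libraries, against 4.1% of all genes. The genes were called on these same means and libraries, so the lack of overlap follows largely from the calling and adds no support.

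The counts depended on single cultures. Without haploid culture 1, 168 genes were called (3.66%), 87 higher and 81 lower, including 42 of the 49. Past both tests at any fold were then 335 higher genes (7.31%) and 322 lower genes (7.02%), and all 49 still had an adjusted p under 0.05 in both edgeR and limma. Without diploid culture 1, 2 or 3 or haploid culture 2 there were 0 calls, and without haploid culture 3 there were 2, ftm4 and pfl7, with limma run on the remaining 5 culture means. All 49 genes kept their sign and an edgeR adjusted p under 0.05 in each of the 6 fits without a culture. These fits reuse most of the libraries that called the genes, so this is no independent support. In limma on the culture means, each of the 49 had an adjusted p of at least 0.125 in 1 or more of the 6 fits.

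**Figure D2:**
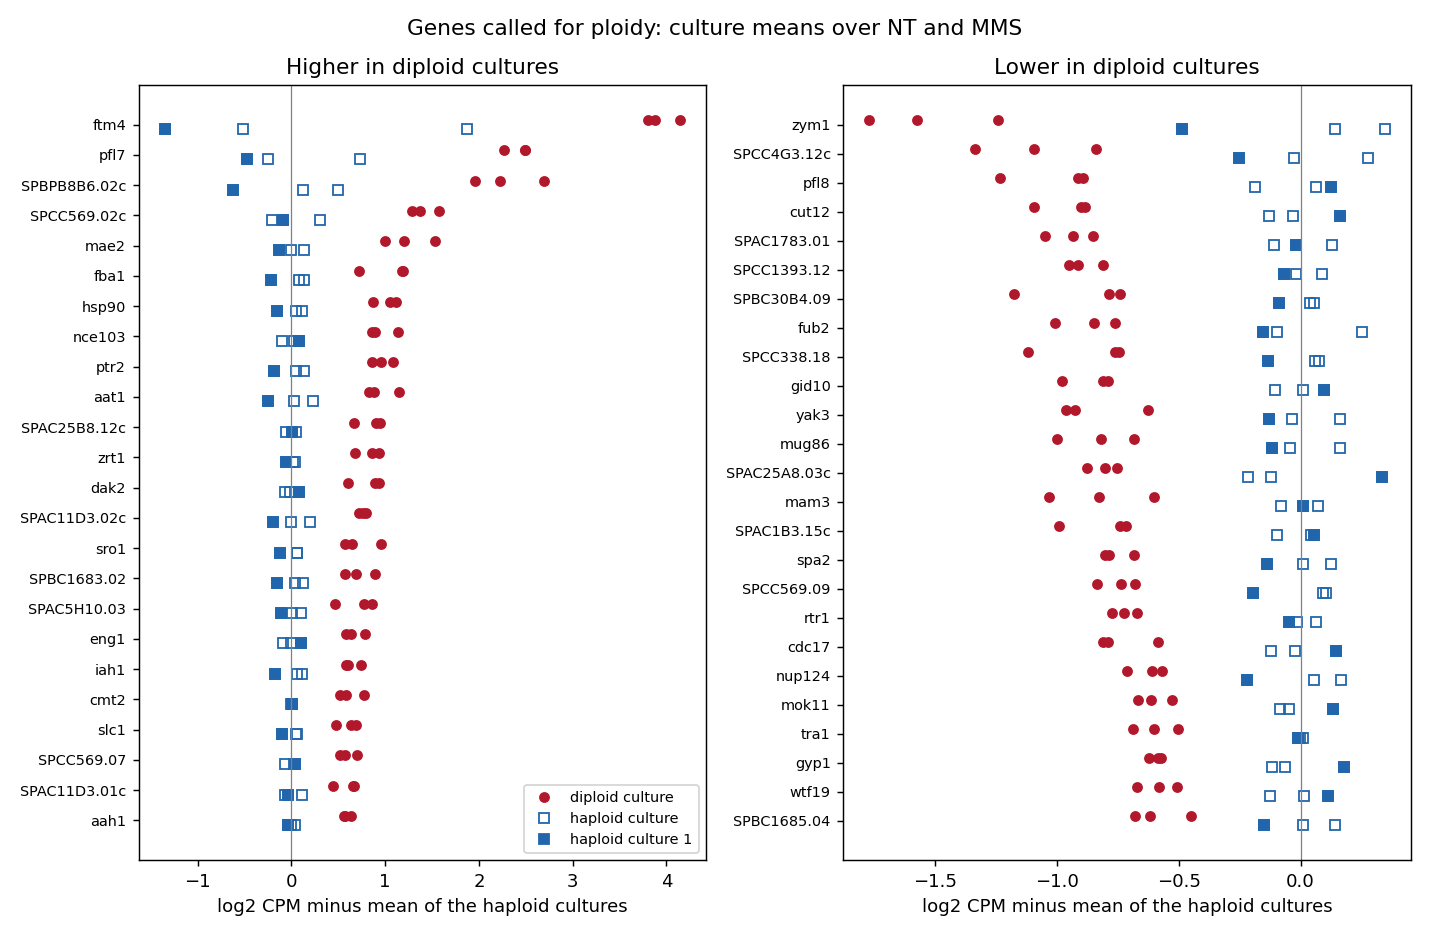
Culture means of the 49 called genes as log2 CPM minus the mean of the haploid cultures (x axis), with diploid cultures as filled circles, haploid cultures as squares and haploid culture 1 as a filled square. In every row the 3 diploid cultures lie on the same side of the 3 haploid cultures, which calling on these means favours. The genes ftm4 and pfl7 show the widest spread among haploid cultures.

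The 49 genes were called on the average of MMS and NT, a choice that favours genes with the same sign in both. All 49 had the same sign with and without MMS, as did 3311 of all 4584 genes (72.2%). The 24 higher genes had a median log2 fold change of 0.72 in MMS and 0.83 in NT, and the 25 lower genes -0.71 in MMS and -0.94 in NT. The size was larger in NT than in MMS for 15 of the 24 higher genes and for 22 of the 25 lower genes, beside 2546 of all 4584 genes (55.5%). These differences were not resolved per gene. The test of the interaction, with the culture as a block, called 0 of 4584 genes (0.0%) in edgeR, and the smallest adjusted p was 0.161. At an unadjusted p under 0.05 were 626 genes, more than the share of 0.05 that chance gives. The 0 calls thus do not show an equal effect in both conditions. Without the block edgeR also called 0 genes, with 155 at an unadjusted p under 0.05, below that share. In edgeR alone, the NT contrast called 133 genes (2.9%), 47 of the 49 among them, and the MMS contrast 25 genes (0.545%), 23 of the 49 among them, and these conditions share their cultures.

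**Figure D3:**
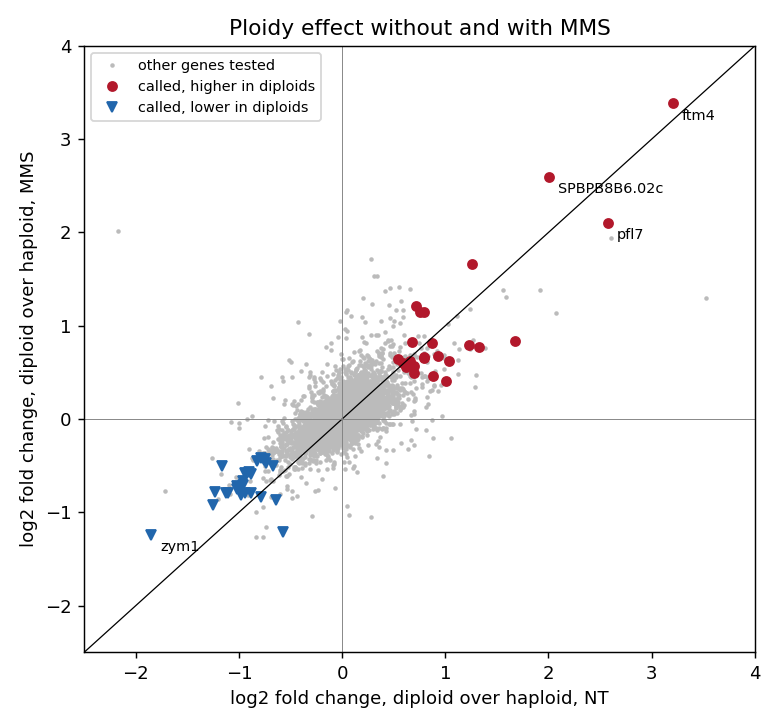
Log2 fold change of diploid over haploid in NT libraries (x axis) and in MMS libraries (y axis) for the 4584 genes tested, with the 24 higher genes as circles, the 25 lower genes as triangles and the line of equal effect. All called genes fall in the quadrants of equal sign, and most lower genes lie nearer to 0 in MMS than in NT.

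The largest rises were at genes with little expression in haploids. The gene ftm4 (SPAC750.05c), annotated as a protein with a transmembrane helix, had 27.3, 27.4 and 40.9 CPM in diploid MMS and 36.8, 32.8 and 35.5 CPM in diploid NT libraries, against 1.06, 1.39 and 6.45 CPM in haploid MMS and 0.511, 1.43 and 9.40 CPM in haploid NT libraries. All diploid libraries were above all haploid libraries, and haploid culture 3 was the highest haploid culture in both conditions. Its log2 fold change was 3.30 ± 0.54 (SE; edgeR adjusted p = 0.0022, limma on culture means 0.0498), and 4.92 without haploid culture 3. Of the stretches of 50 bases in ftm4, 92.4% occur elsewhere in the RefSeq genome, so reads may be shared with other members of its family and its values are uncertain.

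Among surface proteins, pfl7 (SPBC359.04c), a DIPSY family glycoprotein of the flocculin group that mediates adhesion between cells, had 10.03, 7.25 and 10.7 CPM in diploid MMS and 17.6, 17.8 and 16.5 CPM in diploid NT libraries. In haploids it had 1.82, 1.86 and 2.79 CPM in MMS and 1.42, 1.92 and 5.31 CPM in NT, and no library overlapped between the ploidies. The log2 fold change of pfl7 was 2.34 ± 0.26 (edgeR adjusted p = 0.000305, limma 0.0235). The 8 flocculins tested did not move as a group: pfl7 and pfl3 (log2 0.55) rose, pfl8 fell, and the median was -0.03 beside 0.01 for all genes. For pfl8 the diploid libraries ranged over 30.1, 49.5 and 70.1 CPM (lowest, median and highest) and the haploid libraries over 72.2, 96.9 and 116 CPM, without overlap, for a log2 fold change of -1.01 ± 0.13 (edgeR adjusted p = 0.000622). For pfl3, 33.7% of the stretches of 50 bases occur elsewhere in the genome. Beside the flocculin counts, 0.654% of all genes tested rose and 0.894% fell.

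Several transporters rose. The urea transporter gene SPBPB8B6.02c had 2.9997, 5.16 and 3.07 CPM in diploid MMS and 8.59, 9.63 and 5.72 CPM in diploid NT, against 0.606, 0.526 and 0.669 CPM in haploid MMS and 0.6246, 2.23 and 3.10 CPM in haploid NT. Its highest haploid library was NT of culture 3, which reached the lowest diploid libraries, and the log2 fold change was 2.25 ± 0.31 (edgeR adjusted p = 0.000881). The peptide transporter ptr2 had 18.6, 27.0 and 31.5 CPM (lowest, median, highest) in diploids and 7.83, 14.7 and 20.05 CPM in haploids, a log2 fold change of 0.96 ± 0.14. The amino acid permease aat1 had 70.0, 93.8 and 110 CPM in diploids and 30.8, 43.5 and 72.5 CPM in haploids, a log2 fold change of 0.95 ± 0.12. For ptr2 and aat1 the highest haploid libraries, all NT, overlapped with the lowest diploid libraries, all MMS, while the culture means did not overlap. In the list of amino acid and nitrogen transporters these were the 2 of 14 tested genes that rose, 0 fell, and the list median was 0.07. Over all genes tested, 0.654% rose and 0.894% fell.

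Metal genes moved in opposite directions. The metallothionein gene zym1, whose product binds zinc and cadmium, had 722, 524 and 436 CPM in diploid MMS and 240, 159 and 251 CPM in diploid NT, against 975, 1482 and 1523 CPM in haploid MMS and 505, 1056 and 775 CPM in haploid NT. Within each condition every diploid library was below every haploid library, and haploid culture 1 was the lowest haploid culture. The log2 fold change of zym1 was -1.54 ± 0.22 (edgeR adjusted p = 0.000991, limma 0.031), the largest fall of all genes tested. The plasma membrane zinc importer zrt1 had 79.4, 126 and 183 CPM (lowest, median, highest) in diploids and 56.9, 67.8 and 88.5 CPM in haploids, and rose by 0.83 ± 0.09 on the log2 scale. The copper transporter subunit gene ctr5 rose by 0.53, and its partner ctr4, at 0.95, did not pass (limma adjusted p = 0.075). Of 12 copper and zinc genes tested, 2 rose and 1 fell, beside 0.654% and 0.894% of all genes. Among 16 iron genes 0 passed both tests. The siderophore transporter gene str3 had 2.01, 2.66 and 4.78 CPM in diploids and 0.284, 1.04 and 2.10 CPM in haploids, and its log2 value of 1.47 had a limma adjusted p of 0.0556. Without haploid culture 1, str3 passed both tests, and without any other single culture it did not. In those other fits at most 2 of all 4584 genes passed.

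In central carbon metabolism, fba1, the aldolase that splits fructose bisphosphate in glycolysis, had 3244, 3387 and 1876 CPM in diploid MMS and 3309, 3142 and 3010 CPM in diploid NT libraries. In haploid libraries fba1 had 1347, 1836 and 1811 CPM in MMS and 1144, 1357 and 1279 CPM in NT. Diploid MMS of culture 3 was the lowest diploid library and lay just above the highest haploid ones. The log2 fold change of fba1 was 1.05 ± 0.16 (edgeR adjusted p = 0.00184, limma 0.0436). The malic enzyme gene mae2 had 241, 369 and 509 CPM (lowest, median, highest) in diploids and 118, 150 and 193 CPM in haploids, a log2 fold change of 1.26 ± 0.17 (edgeR adjusted p = 0.000762). The dihydroxyacetone kinase gene dak2 rose by 0.81 ± 0.12 on the log2 scale. Of 10 genes of gluconeogenesis and alternative carbon use, mae2 and dak2 were the 2 that passed, beside 1.55% of all genes. Only 3 of the 10 were positive, and the list median was -0.10.

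The other glycolytic and fermentation genes were mostly higher in value without passing. Of 19 tested, fba1 rose and 0 fell, 16 had a positive log2 value, and the list median was 0.43 beside 0.01 for all genes. The share of all genes that rose was 0.654%, and 2407 of all 4584 genes had a positive value. The glyceraldehyde-phosphate dehydrogenase gene tdh1 was at 1.07, the enolase gene eno101 at 0.99, the alcohol dehydrogenase gene adh1 at 0.94 and the phosphoglycerate kinase gene pgk1 at 0.88, with limma adjusted p of 0.13, 0.22, 0.15 and 0.26. Without haploid culture 1, 8 of these 19 genes passed both tests, all of them higher in diploids, beside 7.31% of all genes. Without any other single culture 0 of the 19 passed. In those fits at most 2 of all 4584 genes passed, so that 0 is not particular to this list. The list median was 0.26 in MMS and 0.63 in NT. Of 8 glucose transporters, 0 passed and 7 were positive, with a median of 0.28.

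Most cytosolic chaperones also had positive values, and 2 of them rose. The chaperone gene hsp90 had 1373, 1263 and 1525 CPM in diploid MMS and 1743, 1474 and 1713 CPM in diploid NT, against 743, 817 and 836 CPM in haploid MMS and 603, 723 and 773 CPM in haploid NT. No library overlapped between the ploidies, and the log2 fold change was 1.01 ± 0.11 (edgeR adjusted p = 0.000234, limma 0.0223). The J-domain protein gene mas5, a partner of Hsp70, had 394, 510 and 606 CPM (lowest, median, highest) in diploids and 310, 330 and 410 CPM in haploids, and rose by 0.57 ± 0.08. Of 17 cytosolic chaperones tested these 2 rose and 0 fell, beside 0.654% and 0.894% of all genes. In this list 16 were positive, beside 2407 of all 4584 genes, and the median was 0.32. The Hsp70 genes ssa1 and ssa2 were at 0.81 and 0.79 with limma adjusted p of 0.095 and 0.11. Without haploid culture 1, 5 of the 17 passed both tests, all higher in diploids, beside 7.31% of all genes. Without any other single culture 0 of the 17 passed, in fits where at most 2 of all 4584 genes passed, so that 0 is not particular to chaperones. Among 10 mitochondrial and endoplasmic reticulum chaperones 0 passed, with a median of 0.22.

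Heat shock factor binds inverted repeats of GAA, and the stretches that hold them before 4 of these chaperone genes show where the letters lie. The motif GAANNTTC was searched on both strands in the 300 bases before each gene start as RefSeq (ASM294v3) places it. It was present before 11 of the 17 cytosolic chaperones (64.7%) and before 520 of 4579 genes with a sequence (11.4%). In the stretches that follow, written 5′ to 3′ along the gene, capitals mark GAANNTTC in hsp90 and mas5, and GAANNTTC or its other phase TTCNNGAA, which overlap where they share letters, in ssa1 and ssa2.
hsp90: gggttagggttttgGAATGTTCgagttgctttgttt
mas5: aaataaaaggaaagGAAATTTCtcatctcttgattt
ssa1: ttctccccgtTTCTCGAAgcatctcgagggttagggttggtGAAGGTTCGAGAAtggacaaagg
ssa2: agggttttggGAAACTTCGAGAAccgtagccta
The hsp90 stretch is chrI:3891175-3891210 (minus strand) and the mas5 stretch chrII:1081137-1081172 (plus strand). The ssa1 stretch is chrI:2298000-2298063 (minus strand) and the ssa2 stretch chrIII:2056974-2057006 (plus strand). Among the 30 genes that rose, 4 held GAANNTTC (13.3%), and among the 41 that fell, 2 (4.88%), beside the 11.4% of all genes.

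At the septum, eng1, the glucanase that digests the primary septum so that daughter cells part, had 31.5, 36.6 and 33.1 CPM in diploid MMS and 84.1, 77.2 and 106 CPM in diploid NT. In haploids eng1 had 28.2, 21.9 and 23.3 CPM in MMS and 47.9, 47.1 and 49.9 CPM in NT. Diploids were above haploids within each condition, and the log2 fold change was 0.68 ± 0.11 (edgeR adjusted p = 0.00211, limma 0.031). It was the 1 gene of 10 septum separation genes that passed, beside 1.55% of all genes. Among the others, adg1 was at 0.78 (limma adjusted p = 0.22), and the list median was 0.08 with 6 of 10 positive.

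A few genes of the spindle pole, replication and repair were among those that fell, with medians of -0.02, 0.02 and -0.03 for their lists. The gene cut12, whose product sits at the spindle pole body and promotes entry into mitosis, had 386, 326 and 344 CPM in diploid MMS and 183, 163 and 202 CPM in diploid NT, against 683, 578 and 568.6 CPM in haploid MMS and 444, 402 and 356 CPM in haploid NT. Within each condition the diploid libraries lay below the haploid libraries, and MMS levels were above NT levels in both ploidies. Its log2 fold change was -0.96 ± 0.09 (edgeR adjusted p = 0.000206, limma 0.0223). The spindle checkpoint kinase gene bub1 had 203, 256 and 307 CPM (lowest, median, highest) in diploids and 287, 354 and 402 CPM in haploids, and fell by 0.48 on the log2 scale. These were the 2 of 39 spindle, pole body and kinetochore genes that fell, 0 rose, and the median of the list was -0.02. Over all genes tested, 0.894% fell and 0.654% rose.

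In DNA replication the DNA ligase gene cdc17, which joins lagging-strand fragments, had 107, 112 and 135 CPM (lowest, median, highest) in diploids and 158, 202 and 222 CPM in haploids, without overlap. Its log2 fold change was -0.73 ± 0.10 (edgeR adjusted p = 0.000762, limma 0.0298). The gene of the small subunit of DNA polymerase delta, cdc1, fell by 0.44, and these were the 2 of 55 replication genes that passed, with a list median of 0.02. In DNA repair, ctp1, which encodes an endonuclease cofactor that resects broken ends, had 172, 150 and 152 CPM in diploid MMS and 103, 96.5 and 105 CPM in diploid NT, against 252, 233 and 227 CPM in haploid MMS and 153, 150 and 133 CPM in haploid NT. The diploid libraries lay below the haploid ones in each condition, the log2 fold change was -0.55 ± 0.06 (edgeR adjusted p = 0.000305, limma 0.032), and ctp1 was the 1 of 49 repair genes that passed. It was also the 1 of 23 targets and regulators of MBF, the transcription factor of the G1 to S transition, to pass. The other 22 lay between -0.20 and 0.32.

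Further falls covered protein turnover, metabolism and transport. A ubiquitin ligase gene, SPCC4G3.12c, had 107, 121 and 187 CPM (lowest, median, highest) in diploids and 220, 273 and 352 CPM in haploids, a log2 fold change of -1.09 ± 0.15 (edgeR adjusted p = 0.000825). The methionine synthase reductase gene SPAC1783.01 had 50.8, 57.5 and 70.2 CPM in diploids and 98.4, 111 and 138 CPM in haploids, a log2 fold change of -0.95 ± 0.10. Libraries of the 2 ploidies did not overlap for either gene. SPAC1783.01 overlaps vps66 on the opposite strand by 1391 bases, and vps66 had a mean of 3.92 counts. The aldo-keto reductase gene yak3 fell by 0.84 and, with zym1, was 1 of the 2 of 25 general stress genes that passed, both of them falls, with a list median of -0.12. The remaining largest falls were SPCC1393.12 (-0.90), SPBC30B4.09 (-0.89), fub2 of the PI31 proteasome regulator family (-0.88), SPCC338.18 (-0.87), gid10 (-0.87) and the acetate transporter gene mug86 (-0.83), and mok11, which encodes an alpha-glucan synthase of the cell wall, was at -0.61. Others that passed as falls were the nucleoporin gene nup124 (-0.64), the M-cell adhesion gene mam3 (-0.81) and wtf19 (-0.59), a member of the wtf family of meiotic drivers. In the nuclear pore list nup124 was the 1 of 32 genes to pass, mam3 was the 1 of 9 M-cell markers, and wtf19 the 1 of 18 wtf genes, whose median was -0.27 with 3 positive. Beside the counts of these lists, 0.894% of all genes tested fell. Of the stretches of 50 bases, 73.4% in wtf19 and 17.9% in mam3 occur elsewhere in the genome.

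The rest of the largest rises were of mixed function. The carbonic anhydrase gene nce103, which makes bicarbonate from CO2, had 175, 143 and 132 CPM in diploid MMS and 167, 137 and 156 CPM in diploid NT, against 67.5, 65.1 and 70.2 CPM in haploid MMS and 98.9, 79.2 and 88.0 CPM in haploid NT. The ploidies did not overlap, and the log2 fold change was 0.97 ± 0.10 (edgeR adjusted p = 0.000206, limma 0.0223). The nucleotide-sugar phosphatase gene SPAC25B8.12c rose by 0.84 ± 0.08 and the acyltransferase gene slc1, which makes phosphatidic acid, by 0.60 ± 0.10. SPCC569.02c, an uncharacterized gene, had 2.72, 3.38 and 4.35 CPM (lowest, median, highest) in diploids and 0.96, 1.08 and 2.04 CPM in haploids, and rose by 1.46 ± 0.20. For SPCC569.02c 19.5% of the stretches of 50 bases occur elsewhere in the genome.

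Across the 41 gene lists, 16 had at least 1 member that passed both tests and 25 had 0. Among those with 0 were purine synthesis (14 genes, median 0.16), the proteasome (34 genes, median -0.04), the respiratory chain and ATP synthase (33 genes, median -0.09), histones (10 genes, median 0.07), cell size and mitotic entry (24 genes, median -0.04) and the DNA damage checkpoint (14 genes, median -0.04). Beside these the median of all genes was 0.01, and 1.55% of all genes passed both tests. Counts of 0 in lists of this size are close to that share. Some of these counts of 0 also changed without haploid culture 1. Then 5 of 14 purine synthesis genes passed as higher in diploids, beside 7.31% of all genes. As lower passed 3 of 33 respiratory, 2 of 24 cell size and 2 of 14 checkpoint genes, beside 7.02% of all genes. The proteasome and histone lists stayed at 0. For cytosolic ribosomal proteins the count depended on 1 culture. With all cultures 0 of 120 passed both tests, beside 1.55% of all genes. Of the 120, 115 were positive, beside 2407 of all 4584 genes, and their median was 0.27. Without haploid culture 1, 92 of 120 passed both tests at any fold, all higher in diploids, beside 335 of all 4584 genes (7.31%). In the additive edgeR fit alone 7 of 120 were higher with all libraries, beside 219 of all genes (4.78%), and 46 of 120 without the haploid NT library of culture 1, beside 298 of all genes higher (6.5%) and 386 lower (8.42%).

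**Figure D4:**
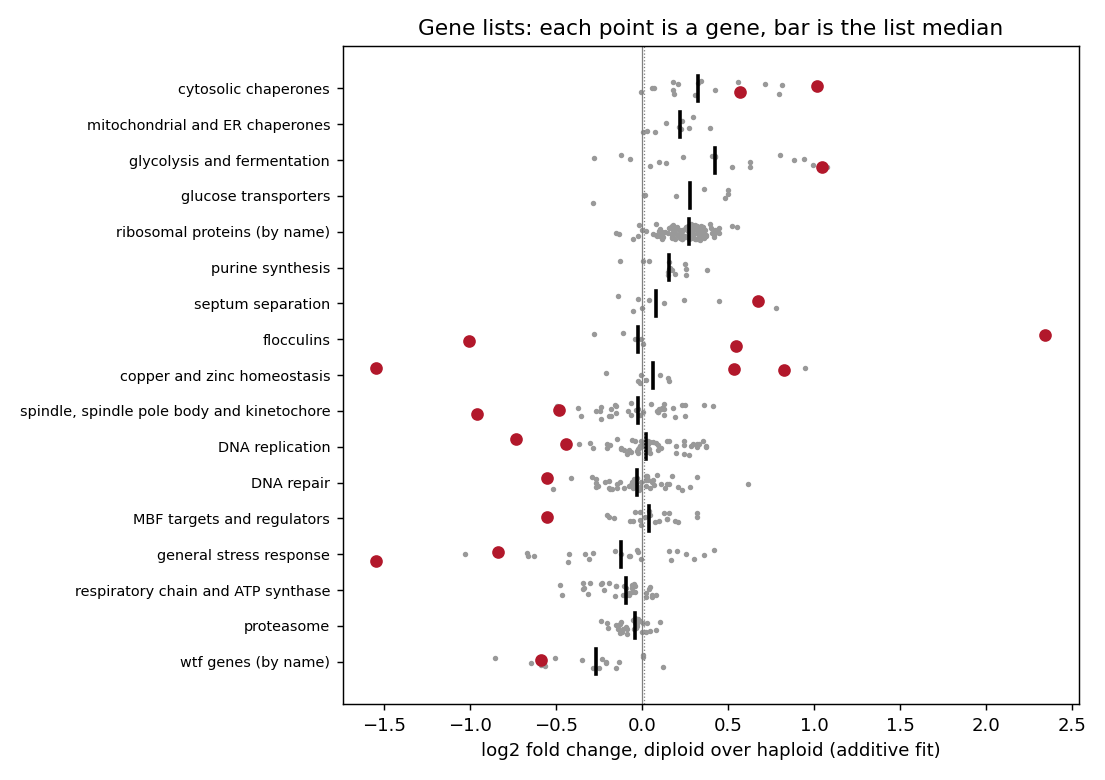
Log2 fold change of diploid over haploid (x axis, additive fit) for the members of 17 gene lists, with members past both tests as large circles, other members as small points, the list median as a black bar and the median of all genes as a dotted line. Cytosolic chaperones (median 0.32), glycolysis (0.43) and ribosomal proteins (0.27) sit to the right of the median of all genes with few or 0 genes passing, and wtf genes (-0.27) to the left.

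Many of the higher genes lay near chromosome ends. Of the 24 higher genes, 13 (54.2%) were within 150 kb of a chromosome end in the RefSeq assembly, against 3 of the 25 lower genes (12%) and 238 of all 4584 genes tested (5.19%). The 13 were spread over 5 of the 6 ends: 5 at the left end of chromosome II (SPBPB8B6.02c, cmt2, aat1, pfl7 and SPBC1683.02), 4 at the left end of chromosome I (dak2, SPAC11D3.01c, SPAC11D3.02c and SPAC5H10.03), ftm4 at the right end of I, aah1 at the left end of III, and SPCC569.02c with SPCC569.07 at the right end of III. Beyond those described above, cmt2 encodes a catechol O-methyltransferase (log2 0.63), aah1 a cell surface glycosyl hydrolase (0.59) and SPCC569.07 an aromatic aminotransferase (0.59). The distance of 150 kb was chosen after the called genes were seen, and the shares are a description without a test.

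Over all genes near the ends the values differed between chromosomes. Within 150 kb the median log2 fold change was 0.20 at the left and 0.18 at the right end of I, 0.39 at the left and 0.24 at the right end of II, but 0.04 at the left and 0.03 at the right end of III. Pooled over the ends, genes within 50 kb (called ones included) had a median log2 fold change of 0.31 (48 genes, 35 positive), those at 50 to 100 kb 0.15 (89 genes) and those at 100 to 150 kb 0.12. At 150 to 200 kb the median was 0.01 (112 genes), the same as for genes farther than 300 kb. Within 50 kb the median was 0.34 in MMS and 0.26 in NT. The genes within 50 kb were expressed at a median of 18.7 CPM, against 118 CPM beyond 300 kb. Without haploid culture 1 the share within 150 kb was 24 of 87 higher genes (27.6%), and the median of all genes within 150 kb was 0.15, against 0.17 with all cultures. The chromosomes as wholes did not shift: the medians were 0.01 for I (2082 genes), 0.03 for II (1674 genes) and -0.03 for III (828 genes), and 58 of 63 windows of 200 kb had a median within 0.1 of 0.

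**Figure D5:**
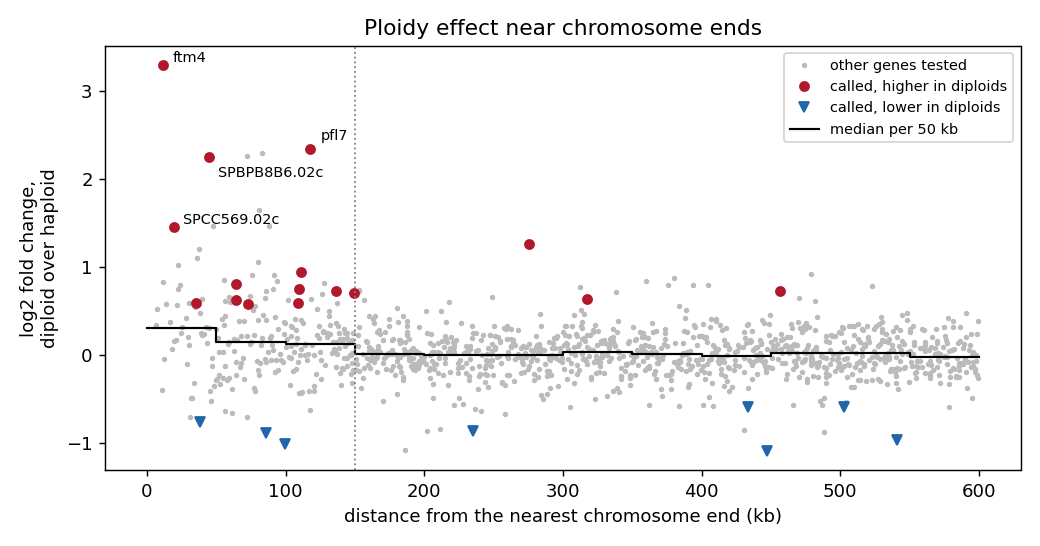
Log2 fold change of diploid over haploid (y axis) against the distance of a gene from the nearest chromosome end in kb (x axis, up to 600 kb), with called higher genes as circles, called lower genes as triangles and the median per 50 kb as a line. The line lies at 0.31, 0.15 and 0.12 in the first 3 steps and near 0 beyond 150 kb (dotted line), and 13 of the 24 higher genes lie left of that mark.

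Some called genes overlap others, and since the strand setting of the counting is not stated, reads of genes on opposite strands may not be told apart. On opposite strands, dak2 overlaps SPAC977.17 by 762 bases, SPAC5H10.03 overlaps hsp3102 by 886 bases and mug86 overlaps mtf2 by 420 bases, so their values are uncertain. These partners were at log2 values of 0.38, -0.31 and -0.17.

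Some called genes were neighbours. In the cluster at the left end of II, aat1, pfl7 and the transporter gene abc3 (log2 0.53) followed each other with no other tested gene between them, and all 3 rose. SPAC11D3.01c and SPAC11D3.02c, 634 bases apart, rose by 0.59 and 0.75. SPCC569.09 and SPCC569.07, 126 bases apart at the right end of III, moved in opposite directions, at -0.75 and 0.59. SPBC1683.02, annotated as an adenine or adenosine deaminase, had 19.2, 31.3 and 35.6 CPM (lowest, median, highest) in diploids and 13.2, 16.7 and 22.9 CPM in haploids and rose by 0.73 ± 0.11.

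At the locus where the strains differ, ade6 itself, which encodes a purine synthesis enzyme, had 155, 165 and 185 CPM (lowest, median, highest) in diploids and 138, 158 and 205 CPM in haploids. These ranges overlapped, with a log2 value of 0.00 ± 0.10 (edgeR adjusted p = 0.98). The gene next to it, 285 bases away, is bub1. The leucine synthesis gene leu1, which carries the leu1-32 mutation in both ploidies, had 470, 554 and 782 CPM in diploids and 443, 471 and 602 CPM in haploids, with a log2 value of 0.25 ± 0.11 (edgeR adjusted p = 0.15). The mannosyltransferase gene alg9 was at 0.27 ± 0.06 and the subtelomeric gene SPAC977.18 at -0.70 ± 0.12, and neither passed limma on the culture means (adjusted p = 0.152 and 0.0606).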

How the data were processed

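Poly(A)-selected RNA of 12 portions of 6 cultures was sequenced as read pairs. Per the paper's methods and the submitters' processing notes, the authors aligned reads with STAR 2.7.0e to the PomBase genome and made the deposited counts per gene with featureCounts. No source used here gives the genome version, the strand setting or the handling of multiply matching reads. The deposited table held raw counts of 4857 genes and 92 spike-ins. All 12 sample columns were used. Symbols came from RefSeq by locus tag (4855 matched), and 99.7% of matched genes share their 3′ coordinate with RefSeq ASM294v3.

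SPAC977.09c and SPBC1348.10c, copies of 1 reading frame, were left out as in the study's methods, as were genes with fewer than 5 counts in 2 or more libraries, leaving 4584. Counts were fitted with edgeR 4.0.16 (TMM, quasi-likelihood, ploidy plus treatment), and log2 CPM (prior count 2), averaged over MMS and NT of a culture, with limma 3.58.1 (trend). Adjusted p are Benjamini-Hochberg over all genes tested. The interaction was tested in edgeR with the culture as a block. Spike-in scaling used size factors from the 60 spike-ins with counts in every library. The fits were also run on simulated counts with the same spread between cultures for every gene and no culture set apart. That setting differs from these data, and no result here rests on it. The versions of R (4.3.3), DESeq2 (1.42.0) and Python (3.11.15) apply to the alternatives and summaries. Depth was about 16288000 to 26493900 counts a library. Alternatives were other scalings, filters, tools, blocks, thresholds and sets of libraries.

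The MMS and NT libraries with the same number were taken as portions of 1 culture, since the methods describe a divided culture. Their deviations from the group means correlated at 0.441 to 0.711 in all 6 pairs. Pairs of unlike number correlated at -0.69 to 0.57. Haploid MMS 3 correlated at 0.57 with haploid NT 2 and at 0.50 with haploid NT 3. The correlations alone therefore do not fix the pairing of haploid cultures 2 and 3. The study calls the 3 cultures of a ploidy biological replicates without saying how they were started. The limma p-values measure the spread between these cultures. Those of the additive edgeR fit measure the spread between libraries and take the libraries of a culture as independent.

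The named genes were the 12 largest rises and 12 largest falls among genes called in both tests with non-overlapping cultures, up to 3 members per list past both tests with the smallest limma adjusted p, and genes the study or the genotypes single out. The members and the 41 lists (863 genes found, 50 names not found) were chosen with earlier results of these data known. Distances from chromosome ends, shared stretches and neighbours were looked at after the called genes were seen.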

Additional observations from a re-analysis of the deposited data

Results flagged for a closer look

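In groups of 6 libraries of a ploidy, 9 of 100 groups checked had a library whose gap to its nearest neighbour was large beside the whole range of the group (Dixon's 95% criterion), where chance gives about 1 in 20. Each group pools 3 MMS and 3 NT libraries. Yeast mRNA per spike-in was 1.80 in haploid NT 1, against 1.002 for the next haploid library. For fba1 diploid MMS 3 had 1876 CPM, against 3010 for the next diploid library. Haploid MMS 1 was apart for mok11 (442 CPM, next 365), gid10 (682 CPM, next 532) and sro1 (41.8 CPM, next 49.6). Haploid NT 3 was apart for pfl7 (5.31 CPM, next 2.79) and SPCC569.02c (2.04 CPM, next 1.31). Haploid NT 2 was apart for mug86 (130 CPM, next 106) and SPCC569.07 (29.1 CPM, next 33.8). The ploidies still did not overlap among libraries in any of these 8 genes.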

How the results depend on the processing

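Calls of higher and lower genes in diploids (24 and 25) became 4485 and 0 with spike-in scaling, 51 and 82 from NT alone, 14 and 11 from MMS alone, 66 and 51 in the additive fit alone, 17 and 16 with edgeR on summed cultures, 7 and 3 above a log2 fold change of 1, and 30 and 41 with no fold threshold. With the culture as a random effect (replicate block, within-culture correlation 0.477) they were 38 and 36, and 48 of the 49 remained called. With the number 1 to 3 as a fixed term (replicate block across ploidies) they were 0 and 0. No source used here says whether the numbers pair diploid with haploid cultures. Same-numbered cultures correlated at -0.33, 0.33 and -0.10 in their deviations from the ploidy means. Differently numbered ones correlated at -0.51 to 0.49. With so few cultures these correlations cannot settle whether the numbers pair. Without each culture in turn the counts were 0 to 87 and 0 to 81, and in the additive fit alone without haploid NT replicate 1, chosen after seeing the data, 71 and 60, beside its 66 and 51 with all libraries. The log2 fold change stayed above 0.58 in size in all 6 fits without a culture for 37 of the 49 genes. Genes with an interaction numbered 0 to 5 without each culture in turn. DESeq2, its size factors, both other low-count filters and the averaged contrasts kept 46 to 49 of the 49 calls.

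Under spike-in scaling, with its shift of 1.15, these negative values became positive: SPCC4G3.12c 0.071, pfl8 0.14, cut12 0.16, SPAC1783.01 0.21, SPCC1393.12 0.24, SPBC30B4.09 0.28, fub2 0.26, SPCC338.18 0.37, gid10 0.28, yak3 0.32, mug86 0.33, bub1 0.67, cdc17 0.41, cdc1 0.70, ctp1 0.58, mam3 0.33, nup124 0.53, wtf19 0.55 and SPAC977.18 0.42. For ade6, at about 0 throughout, the sign turned with DESeq2 (-2.99e-05), with MMS alone (-0.0231) and without a culture (-0.0764 to -0.000724 where negative).

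Limits: each ploidy is 1 strain, the ade6 alleles differ with ploidy, and 3 cultures a ploidy leave adjusted p near the threshold.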

Other observations

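SPBPB2B2.06c, a phosphoprotein phosphatase gene near the right end of chromosome II that the filter on low counts removed because of 2 low haploid libraries, had 76, 42 and 28 counts in diploid MMS and 49, 22 and 32 counts in diploid NT libraries. It had 4, 9 and 8 counts in haploid MMS and 3, 6 and 11 counts in haploid NT libraries, so that every diploid library was above every haploid library. Under the filter of at least 5 counts in at least 2 libraries its log2 fold change was 2.55 (edgeR adjusted p = 0.00100, limma on culture means 0.0353). It was singled out after its values were seen.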
